A study of Rattus with 6 samples.

Results

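Rplp1, Rpl13a, Eif4b and Pop7 are 4 genes on a rat circular RNA (circRNA) microarray whose products make or run the protein synthesis machinery. Their signals were compared between reperfused and control hearts. The 4 genes were chosen by probe name, 1 probe each, from 62 probes for mRNA, of which 39 were matched to a gene by accession. The array holds 14227 probes, of which 14145 are for circRNAs and 20 are custom probes without a name. The probes are CUST_11_PI421900130 for Rplp1 (designed on NM_001007604.1), CUST_5_PI421900130 for Rpl13a (NM_173340.2), A_44_P1033541 for Eif4b (NM_001008324) and A_43_P16530 for Pop7 (NM_001105918). The ribosomal pair comes from a custom set of 12 probes that also holds Actb, B2m, Hprt1, Gusb and Sdha, genes often used as references for expression, and the Eif4b and Pop7 probes come from catalogue designs. All 4 accessions were found under these symbols in RefSeq (assembly GRCr8), used here for names only because the array header names build rn4.

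Heart muscle of 6 male SD (Sprague-Dawley) rats was profiled, 1 rat per array. In the 3 rats of the ischemia-reperfusion group the left anterior descending coronary artery was ligated for 40 min and then reperfused for 2 h. In the 3 control rats a thread was passed at the same position without ligation, and tissue was taken at the matching 2 h. Both groups were therefore operated on, with the artery ligated in the ischemia-reperfusion group alone, and neither is an unoperated heart. No genotype or drug treatment is named, the age of the rats and the part of the heart sampled are not given in the sources used here, and the source field of the labels names ischemia-reperfusion for all 6 samples, so the groups rest on the titles and the treatment labels. A step that removes linear RNA is common before circRNA arrays. Whether it was used here is likewise not given, so an mRNA probe need not follow the mRNA level in the tissue. In pieces of whole tissue, fewer cells of a type and less RNA per cell cannot be told apart.

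A ribosome is built of ribosomal RNA and many proteins, and it is among the most costly structures a cell makes. Rplp1 is an acidic protein of the stalk of the large subunit, where it pairs with Rplp2 and helps to bring elongation factors to the ribosome. Rpl13a is a protein of the large subunit that also has a role outside the ribosome in silencing the translation of some inflammatory transcripts, and its mRNA is a common reference in quantitative PCR. Eif4b is an initiation factor that stimulates the RNA helicase Eif4a, which unwinds the start of an mRNA so that the small subunit can scan it. Pop7, also called Rpp20, is a protein subunit of RNase P, which trims the front end of transfer RNA precursors, and of RNase MRP, which takes part in processing ribosomal RNA. mRNAs of ribosomal proteins and of several translation factors are known to be controlled together by mTOR at the level of translation, which an RNA array does not measure. Ribosomal protein genes also have many processed pseudogenes, so part of the Rplp1 and Rpl13a signal could come from transcripts of near-identical copies.

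The arrays differed in brightness, with a 75th percentile of circRNA signal between 64.4 and 102 intensity units, and values below are normalized log2 signals from which that percentile of the same array was subtracted. All 6 arrays came from 1 slide, with the ischemia-reperfusion arrays and control replicate 1 in row 1 and control replicates 2 and 3 in row 2. Control replicate 1 stood apart at the dim end. Over the dimmest tested circRNAs the median normalized signal was -2.51 there and -3.61 to -3.17 on the other 5 arrays. The 10 E1A probes, control spots for a viral sequence that rat RNA lacks, had a median of 23.3 intensity units on that array. On the other 5 arrays it was 7.73 to 12.8. Whether RNA of that viral sequence was added to the samples was not examined, so the E1A level need not be background. Cell type markers were listed for cardiomyocytes, fibroblasts, endothelium, smooth muscle, leukocytes and erythroid cells. Of these, 0 were among the 39 mRNA probes matched to a gene, so the tissue label could not be checked on them. The other 23 mRNA probes had no matched gene.

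All 4 genes were detected on every array. Each probe is printed at 10 positions, all 240 spots of the 4 genes over the 6 arrays were well above the local background, and 12 spots marked as outliers by the scanner software were dropped. Signals were low, between 18.5 and 82.4 intensity units as the geometric mean of the spots. They were 2.54 to 8.13 times the E1A level of the same array for Rplp1, 1.50 to 3.53 times for Rpl13a, 2.31 to 3.78 times for Eif4b and 3.00 to 7.38 times for Pop7. For each of the 4 genes the ratio was lowest on control replicate 1. The negative control spots were dimmer still, with a median of 1.02 to 1.14 intensity units per array. Spots of one probe on one array differed by an SD of 0.03 to 0.11 on the log2 scale, so that the mean over spots had a standard error of at most 0.04. The SD between arrays within a group, pooled over both groups, was 0.41 for Rplp1, 0.17 for Rpl13a, 0.25 for Eif4b and 0.18 for Pop7. That is 14.4, 4.91, 7.72 and 6.34 times the largest spot error of the same gene. With 1 array per rat, this SD holds differences between rats and between arrays alike. The number of arrays, 1 rat each, and not the number of spots therefore limited each comparison.

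The question put to the arrays was whether the 4 genes differed 2 h after reperfusion. All 4 had lower mean signals in reperfused hearts, by 1.45-fold for Rplp1, 1.19-fold for Rpl13a, 1.28-fold for Eif4b and 1.44-fold for Pop7, and none passed the test at a limma adjusted p of 0.05. Among the 43 mRNA probes tested, 1 passed, which is 2.33%, and 0 of the 4 genes did. Negative differences were common on this array: 33 of the 43 probes, or 76.7%, had one, against 4 of the 4 genes. The median log2 difference was -0.44 over the 4 genes and -0.25 over all 43 tested mRNA probes.

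**Figure D1:**
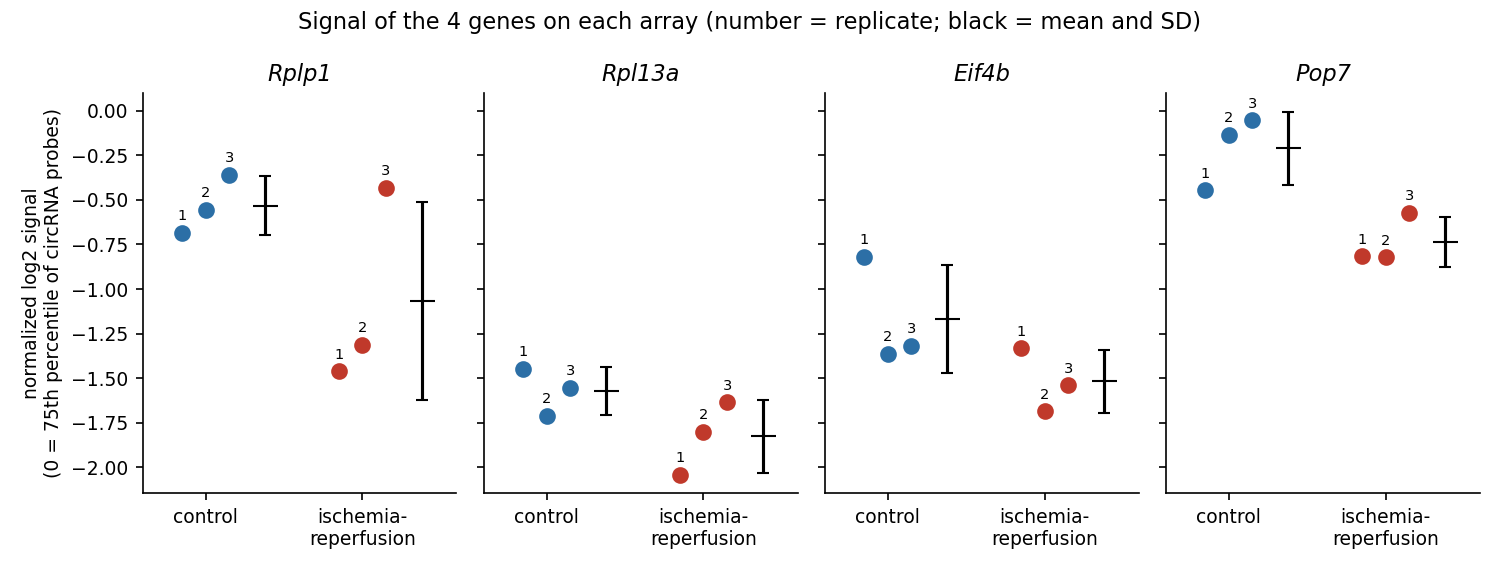
Normalized log2 signal (vertical axis, 0 is the 75th percentile of circRNA probes of the array) of each gene on the 3 control arrays (blue) and the 3 ischemia-reperfusion arrays (red), numbered by replicate, with the mean and SD of each group in black. The groups are apart only for Pop7, and for Rplp1 ischemia-reperfusion replicate 3 lies among the controls.

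Rplp1, the stalk protein, had the largest spread between the arrays of a group, in the ischemia-reperfusion group but not in the controls. Its normalized log2 signal was -1.46, -1.31 and -0.43 in ischemia-reperfusion replicates 1 to 3 and -0.68, -0.56 and -0.36 in control replicates 1 to 3. The first and second reperfused hearts lay below every control, whereas the third lay within the control range. In intensity units that heart had 75.9, the highest of the 6, and the other reperfused hearts had 30.9 and 26.0, against 59.0, 61.5 and 55.2 in the controls. The group means were -1.07 ± 0.56 and -0.53 ± 0.16 (SD, n = 3 each), a log2 difference of -0.54 (SE 0.27, limma adjusted p = 0.274, 95% interval -1.16 to 0.09). Without ischemia-reperfusion replicate 3 the difference was -0.85 and passed (limma adjusted p = 0.0360, with 0.0360 to 0.715 over the 22 alternatives). The call therefore depends on that 1 heart. Leaving it out raised the count of mRNA probes that passed from 1 to 5, so the change was not particular to Rplp1. Without ischemia-reperfusion replicate 1 the Rplp1 difference was -0.34, and within row 1 of the slide, against control replicate 1 alone, -0.38.

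Rpl13a, the reference-type ribosomal protein, differed least. It read -2.04, -1.80 and -1.64 in ischemia-reperfusion replicates 1 to 3 and -1.45, -1.71 and -1.55 in control replicates 1 to 3. The lowest reperfused hearts were again replicates 1 and 2, and replicate 3 lay between the controls. The means were -1.83 ± 0.21 and -1.57 ± 0.13 (SD, n = 3 each), a log2 difference of -0.26 (SE 0.17, limma adjusted p = 0.356, 95% interval -0.65 to 0.14). Without ischemia-reperfusion replicate 1 it was -0.15, and within row 1 of the slide -0.38. The interval includes 0 and also a fall larger than the mean difference of Rplp1, so these arrays do not show whether Rpl13a was stable.

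Eif4b, the helicase cofactor of initiation, had a control group spread by 1 array. It read -1.33, -1.69 and -1.54 in ischemia-reperfusion replicates 1 to 3 and -0.82, -1.36 and -1.32 in control replicates 1 to 3. Control replicate 1 was far above all others, and ischemia-reperfusion replicate 1 lay between the remaining controls. The means were -1.52 ± 0.18 and -1.17 ± 0.30 (SD, n = 3 each), a log2 difference of -0.35 (SE 0.20, limma adjusted p = 0.290, 95% interval -0.81 to 0.11). Without control replicate 1, the array with the bright E1A probes, the difference was -0.18. Within row 1 of the slide, where that array is the one control, it was -0.70. The part of this array's raised dim signal in the Eif4b difference was not tested.

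Pop7, the RNase P and RNase MRP subunit, was the gene whose groups did not overlap. It read -0.82, -0.82 and -0.57 in ischemia-reperfusion replicates 1 to 3 and -0.44, -0.13 and -0.06 in control replicates 1 to 3, so the lowest control lay 0.13 above the highest reperfused heart. In intensity units the order was less clear, since ischemia-reperfusion replicate 3 had 68.8 and control replicate 3, on a dimmer array, 68.1. The means were -0.74 ± 0.14 and -0.21 ± 0.21 (SD, n = 3 each), a log2 difference of -0.53 (SE 0.17, limma adjusted p = 0.189, 95% interval before adjustment -0.92 to -0.13). Groups that did not overlap, with lower values after reperfusion, were found for 8 of the 43 tested probes, or 18.6%, and for 1 of the 4 genes. A lower value that passed limma before adjustment, at the 0.05 level, was found for 9 of the 43, or 20.9%, and again for Pop7 alone among the 4. The two-sided exact permutation test gave p = 0.1 for Pop7, the smallest possible with 3 against 3. The same exact permutation test gave p = 0.3 for Rplp1, 0.2 for Rpl13a and 0.2 for Eif4b.

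The Pop7 call changed with the treatment of control replicate 1. Without that array the difference was -0.64 (limma adjusted p = 0.0408), and with array weights, which gave that array the lowest weight of 0.454, it was -0.60 (limma adjusted p = 0.0478). In these fits more mRNA probes passed than the 1 of the reported setting: 5 without control replicate 1 and 4 with array weights. Over all 22 alternatives the limma adjusted p of Pop7 ran from 0.0408 to 0.715. Within row 1 of the slide, with control replicate 1 as the one control, the difference was -0.29. Without that array, group and slide row cannot be told apart.

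**Figure D2:**
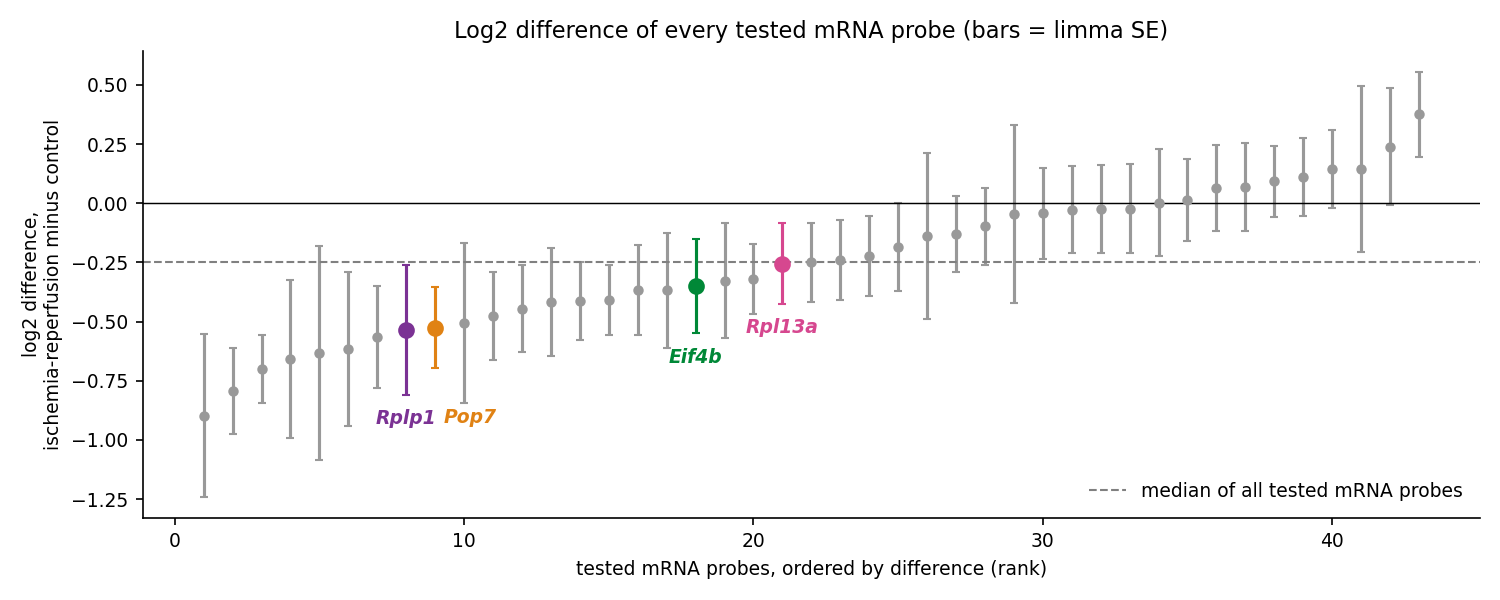
Log2 difference, ischemia-reperfusion minus control (vertical axis, bars are the limma SE), of the 43 tested mRNA probes in order of size (horizontal axis), with the 4 genes in colour and the median of all 43 as a dashed line. Rplp1 and Pop7 take ranks 8 and 9 from the lowest, Eif4b rank 18 and Rpl13a rank 21, next to the median.

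Among all tested mRNA probes the 4 genes were not at the end of the order. Rplp1 took rank 8 of 43 from the lowest difference, Pop7 rank 9, Eif4b rank 18 and Rpl13a rank 21. Of the 39 other tested probes, 7 had a difference at or below that of Pop7. Subtracting the mean of those 39 probes on each array left differences of -0.30 for Rplp1, -0.29 for Pop7, -0.12 for Eif4b and -0.02 for Rpl13a. On that scale Rpl13a had -0.47 ± 0.20 after reperfusion and -0.45 ± 0.15 in controls, and Pop7 had 0.62 ± 0.08 and 0.91 ± 0.25 (SD, n = 3 each). Rplp1 had 0.29 ± 0.43 and 0.59 ± 0.22 (SD, n = 3 each), so that its groups overlapped there too. The Pop7 groups also overlapped on that scale, with ischemia-reperfusion replicate 2 at 0.70 and control replicate 1 at 0.64.

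The circRNA probes of like brightness gave another background. Over all 12960 tested circRNA probes, 8058 had a difference below 0, or 62.2%, and the median log2 difference was -0.11. The 200 circRNAs nearest in mean signal to each gene had median differences of -0.01 for Rplp1, -0.04 for Rpl13a, -0.06 for Eif4b and 0.02 for Pop7. Differences lower than that of the gene itself were seen for 2 of the 200 circRNAs near Rplp1, 7 near Pop7, 29 near Eif4b and 45 near Rpl13a. A circRNA probe has 1 spot and an mRNA probe has 10, so the circRNA differences carry more spot error. The E1A control probes were lower by 0.56 in reperfused hearts (exact permutation test, two-sided, p = 0.1, which is the smallest possible) and by 0.28 without control replicate 1. Those probes were dimmer than every one of the 4 genes on each array, and their part in the differences was not tested.

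The lower value was seen all over the array. Each of the 10 printed positions of each gene had a negative difference on its own. They ran from -0.61 to -0.43 for Rplp1, from -0.41 to -0.14 for Rpl13a, from -0.53 to -0.28 for Eif4b and from -0.70 to -0.39 for Pop7. Positions share the 6 RNA samples, so their agreement describes the printing and scanning and not the animals.

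A further question was whether the 4 genes moved together from heart to heart. Without scaling they did so closely, and after scaling less so. The unscaled log2 signals had Pearson correlations over the 6 arrays of 0.61 to 0.92 for the 6 pairs of genes, with a median of 0.82. Over all 903 pairs of tested mRNA probes the unscaled median was 0.74, so high unscaled values were common and not particular to the 4 genes. The part of array brightness in these values was not tested. After scaling, the 6 pairs had correlations of 0.23 to 0.83 with a median of 0.56, beside a median of 0.24 over all 903 pairs, whose middle 50% ran from -0.23 to 0.56. Row 1 of the slide holds 4 arrays, 1 of them a control, and row 2 holds 2 controls, so no correlation was tested within a row.

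**Figure D3:**
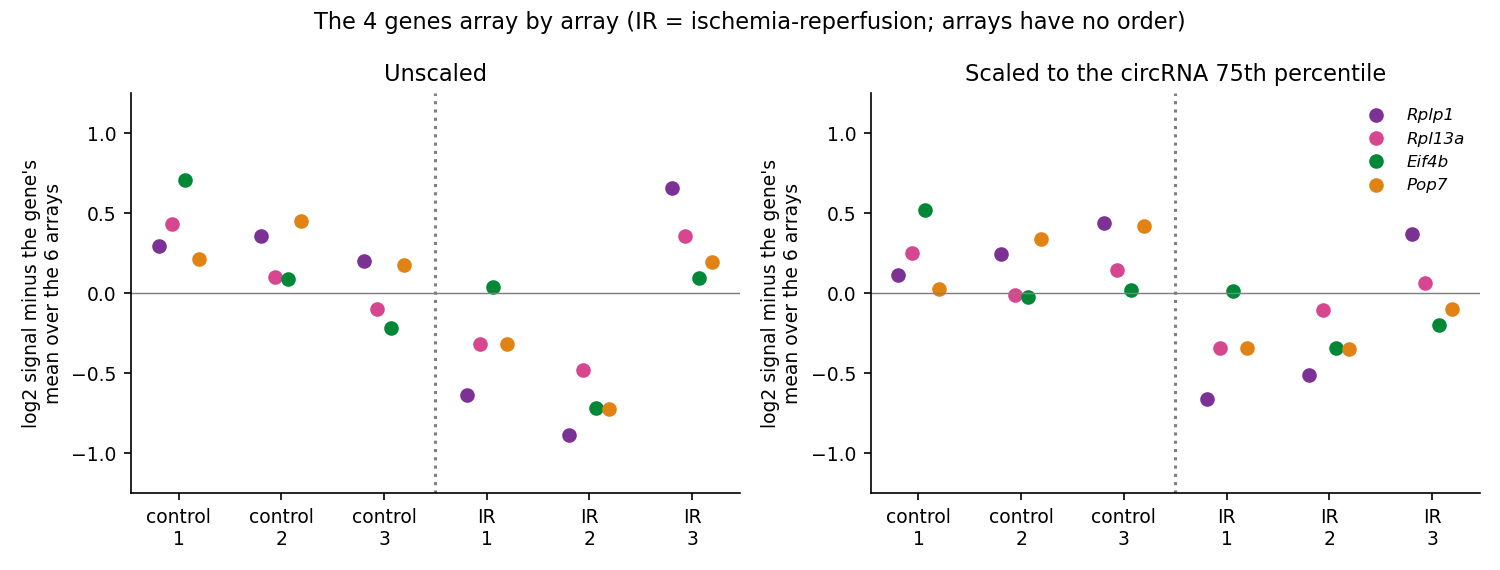
Log2 signal of each gene minus its own mean over the 6 arrays (vertical axis), for control and ischemia-reperfusion (IR) arrays, unscaled on the left and scaled on the right. Unscaled, ischemia-reperfusion replicate 2 is lowest for all 4 genes, whereas after scaling the lowest array is replicate 1 for Rplp1 and Rpl13a and replicate 2 for Eif4b and Pop7.

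The closest pairs joined Rplp1 with Pop7 and with Rpl13a. For Rplp1 and Pop7, r was 0.83 (exact permutation p = 0.0722, adjusted 0.217) and Spearman's rho 0.77 (exact permutation p = 0.103, adjusted 0.29). For Rplp1 and Rpl13a, r was 0.80 (exact permutation p = 0.0486, adjusted 0.217) and rho 0.66 (exact permutation p = 0.175, adjusted 0.29). With this scaling none of the 6 pairs passed after Benjamini-Hochberg adjustment over the 6, in two-sided tests. The call for the ribosomal pair changed with the scaling. Rplp1 and Rpl13a passed under 3 of them, at r = 0.89 after circRNA median scaling, 0.86 after cyclic loess and 0.90 against circRNAs matched for brightness. In each of the 3 the rho was 1, and the exact permutation p of r was 0.00139, the smallest that 6 arrays can give (adjusted 0.00833, and 0.0167 for rho). Over the 10 other scalings and spot settings, their r ran from 0.44 to 0.90 and the adjusted exact permutation p of r from 0.00833 to 0.646. By rho, Rplp1 with Pop7 and Rpl13a with Pop7 also passed with circRNA median scaling (rho = 0.94, adjusted exact permutation p = 0.0333 for both). Each of these calls was adjusted over the 6 pairs alone, and how many of the 903 pairs would pass was not counted. Over the 903 pairs the upper quartile of r was 0.60 after circRNA median scaling, 0.56 after cyclic loess and 0.57 against brightness-matched circRNAs.

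Ischemia-reperfusion replicates 1 and 2 were the arrays farthest from the Rplp1 median. Over the 4 remaining arrays, as a description with no test, r was 0.32 for Rplp1 with Pop7 and -0.35 for Rplp1 with Rpl13a, so that with the 75th percentile scaling the latter relation was not seen without those 2 hearts. With some other scalings it was. For Rplp1 with Rpl13a, r over the same 4 arrays was 0.75 after circRNA median scaling, 0.95 after quantile scaling, 0.87 after cyclic loess and 0.79 against brightness-matched circRNAs. For Rplp1 with Pop7 those values were 0.71, 0.50, 0.48 and 0.38.

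Eif4b followed the others least, and all 3 of its correlations turned negative when arrays were scaled to the median of the mRNA probes. Its r was 0.23 with Rplp1, 0.50 with Rpl13a and 0.32 with Pop7 (exact permutation p = 0.674, 0.293 and 0.558, adjusted 0.674, 0.440 and 0.670). Their rho was 0.14, 0.60 and 0.60 (exact permutation p = 0.803, 0.242 and 0.242, adjusted 0.803, 0.29 and 0.29). Rpl13a and Pop7 had r = 0.62 and rho = 0.66 (exact permutation p = 0.190 and 0.175, adjusted 0.381 and 0.29). Over the 4 arrays nearest to the median of the first gene, again with no test, r was -0.77 for Rplp1 with Eif4b, 0.73 for Rpl13a with Eif4b, 0.68 for Rpl13a with Pop7 and 0.30 for Eif4b with Pop7.

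Within the groups the picture was mixed. With each group's mean removed, the 6 arrays gave r = 0.75 for Rplp1 with Pop7, 0.66 for Rplp1 with Rpl13a, 0.11 for Rpl13a with Eif4b, 0.08 for Rpl13a with Pop7, -0.30 for Rplp1 with Eif4b and -0.71 for Eif4b with Pop7. The median of these 6 values was 0.09, and that over all 903 pairs was 0.11. Opposite orders occurred within the controls, where Pop7 was lowest on replicate 1 and Eif4b and Rpl13a were highest on it.

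**Figure D4:**
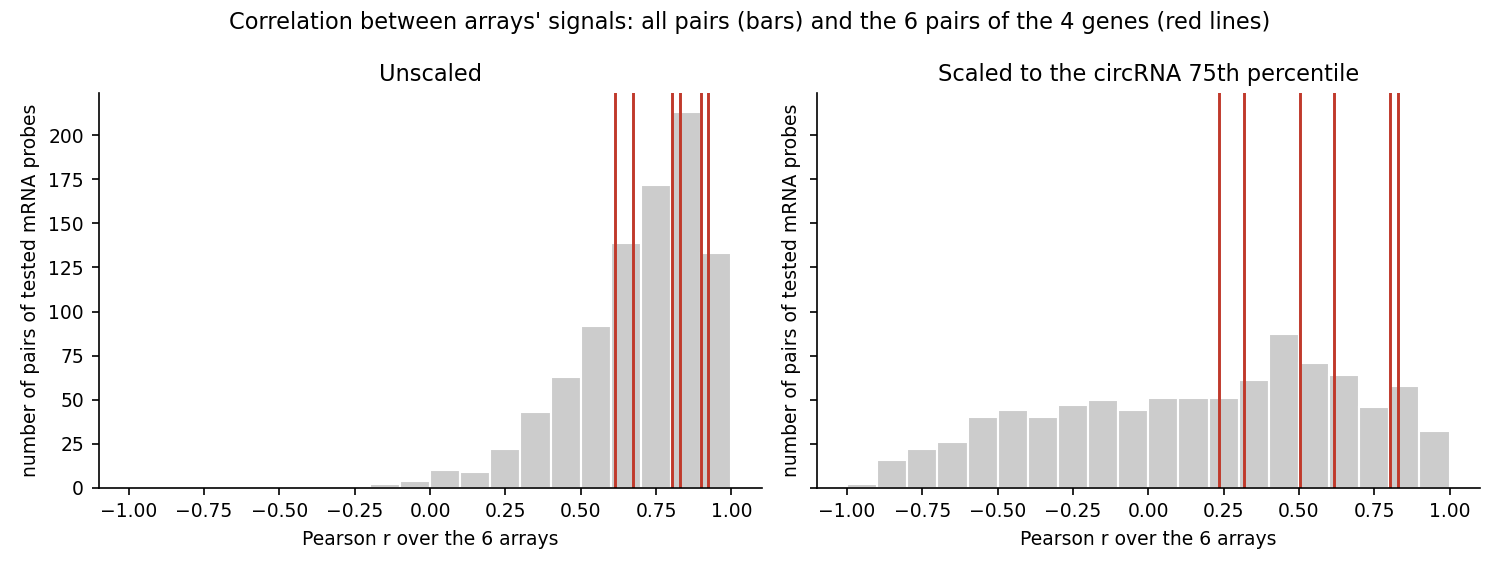
Number of pairs of tested mRNA probes (vertical axis) by Pearson r over the 6 arrays (horizontal axis), unscaled on the left and scaled on the right, with the 6 pairs of the 4 genes as red lines. The bars have a median of 0.74 unscaled and 0.24 scaled, and the red lines span 0.61 to 0.92 and 0.23 to 0.83.

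The ratio of 2 genes on the same array does not depend on a scaling factor, and it asks whether their changes were unequal. The log2 ratio of Rplp1 to Rpl13a was 0.58, 0.49 and 1.20 in ischemia-reperfusion replicates 1 to 3 and 0.76, 1.16 and 1.20 in control replicates 1 to 3, which differed by -0.28 (exact permutation test, two-sided, p = 0.4). Rpl13a over Pop7 was -1.23, -0.98 and -1.06 against -1.003, -1.58 and -1.50, a difference of 0.27 (exact permutation p = 0.3). In both ratios the groups overlapped. Rplp1 over Pop7 differed by -0.01 between the group means, with 1 heart again set apart: it was -0.64, -0.49 and 0.14 in ischemia-reperfusion replicates 1 to 3 and -0.24, -0.42 and -0.30 in control replicates 1 to 3 (exact permutation p = 1). The ratios of Rplp1 to Eif4b, Rpl13a to Eif4b and Eif4b to Pop7 differed by -0.18, 0.10 and 0.17 (exact permutation p = 0.8, 0.6 and 0.6). The permutation test cannot go below 0.1 with 3 against 3, so the ratios were also tested with limma, over all 903 pairs of tested mRNA probes, a test added after the data were seen. Of the 903 ratios 0 passed the adjusted threshold in limma, which is 0%, and 88 had an unadjusted p under 0.05, 0 of the 6 among them. For the 6 ratios the limma adjusted p ran from 0.665 to 0.986. The 95% intervals were wide, from -0.90 to 0.34 for Rplp1 over Rpl13a, from -0.62 to 0.60 for Rplp1 over Pop7 and from -0.29 to 0.83 for Rpl13a over Pop7, so they include equal change as well as sizeable unequal change.

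The other tested mRNA probes most like each gene over the 6 arrays were named by Pearson r, 3 per gene, with no test. For Rplp1 they were the unnamed probe A_44_P222865 at 0.89, Pgk1 of glycolysis at 0.88 and Pop7 at 0.83. For Rpl13a they were the unnamed probe CUST_3_PI421900130 at 0.82, Rplp1 at 0.80 and Ppp2r2b, a regulatory subunit of protein phosphatase 2A, at 0.80. Eif4b was most like Gusb, a lysosomal enzyme, at 0.99, then the growth factor gene Fgf2 at 0.92 and the nucleoside transporter gene Slc28a2 at 0.88. Pop7 was most like Cyp2e1, a cytochrome P450, at 0.98, then Pdk3, a kinase of pyruvate dehydrogenase, at 0.97 and Sdha, a subunit of succinate dehydrogenase, at 0.95. The probes nearest to Eif4b and those nearest to Pop7 are genes with no role in translation. Values over 6 arrays in which both group and array vary give high correlations easily, as the spread over all 903 pairs shows.

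The pathway around these genes is thinly covered by the matched mRNA probes of the array. Of the ribosomal protein list, Rplp1 and Rpl13a were measured. Among the 39 mRNA probes matched to a gene, Eif4b was the 1 translation factor. Pop7 was the 1 subunit of RNase P and RNase MRP, and the list for mTOR signalling to translation had 0 genes. The other 23 mRNA probes had no matched gene, so whether any of them belongs to these lists is not known. The 4 genes therefore stand for themselves: 0 of 2 ribosomal protein genes, 0 of 1 translation factor and 0 of 1 RNase P subunit passed the test.

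Under other settings the direction was kept and the size was not. All 22 alternatives gave a negative difference for each of the 4 genes. Some of them could not change the difference and altered only its SE and p. These were the changes of the detection filter, the fit of circRNA and mRNA probes together, and the replicate block. Scaling to the median of the mRNA probes, with the 4 genes left out, raised the median difference of all tested mRNA probes by 0.23, to -0.02, and left -0.31 for Rplp1, -0.30 for Pop7, -0.13 for Eif4b and -0.03 for Rpl13a (limma adjusted p = 0.667, 0.667, 0.799 and 0.978). On that scale 53.5% of tested probes were lower, against 76.7% with the circRNA percentile. The scaling centres largely the same probes, so their small median difference and near-even share follow largely from it. Scaling to Hprt1 and B2m gave -0.55, -0.54, -0.36 and -0.27 in the same order, and quantile scaling -0.51, -0.51, -0.33 and -0.18. The labels number the replicates in both groups, and with the number as a block the differences were the same and none of the 4 passed.

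**Figure D5:**
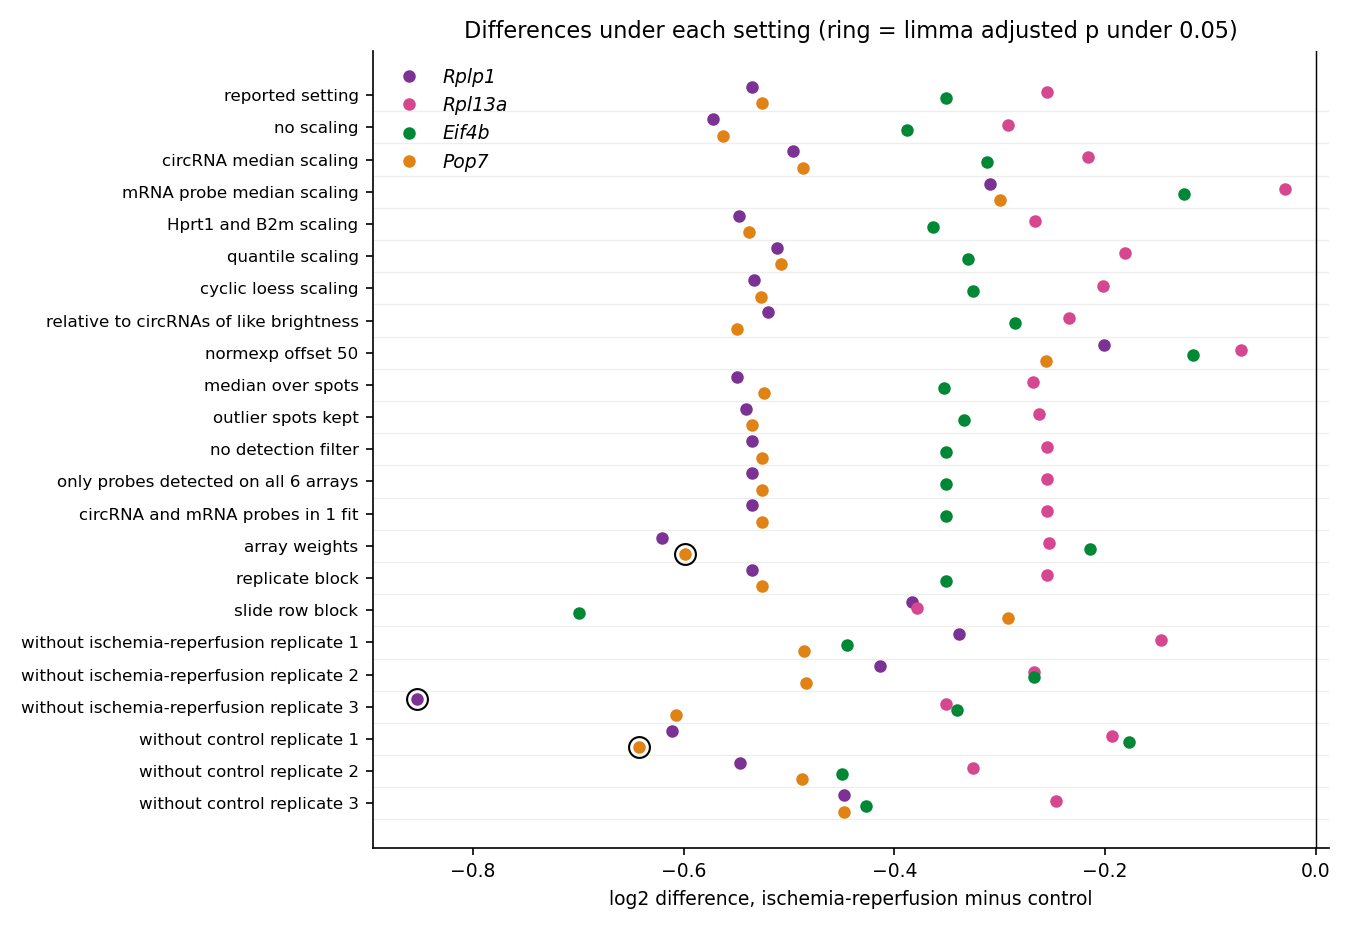
Log2 difference, ischemia-reperfusion minus control (horizontal axis), of the 4 genes under the reported setting and each alternative (vertical axis), with a ring where the limma adjusted p was under 0.05. All points lie below 0, from -0.85 to -0.03, and the 3 rings belong to Rplp1 without ischemia-reperfusion replicate 3 and to Pop7 with array weights and without control replicate 1.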

How the data were processed

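The authors deposited 1 scanner table per array with spot intensity on a linear scale. Per the file headers, Agilent Feature Extraction (version 11.0.1.1, 1 colour) subtracted background and detrended each array, and no normalization between arrays was applied. RNA was isolated with Trizol and labelled with Cy3 by random priming, per the labels' protocols. The deposited series table of circRNA values holds none of the 4 genes and was not used.

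Outlier spots were dropped, log2 processed intensities of a probe's spots were averaged, and the 75th percentile of circRNA probes of the array was subtracted. An mRNA probe was detected when over 50% of its spots were well above background, and tested when detected on all 3 arrays of a group. Groups were compared with limma 3.58.1 in R 4.3.3 (lmFit and eBayes, two-sided, all 6 arrays, no covariates), with Benjamini-Hochberg adjustment over the 43 tested mRNA probes. Single values were tested by exact permutation, and ratios also by limma. The fit was tested on simulated data. Figures were drawn with matplotlib 3.10.9. The named genes were the 4 genes, the 3 tested mRNA probes most correlated with each, and measured members of the fixed pathway lists. The genes, lists and settings were chosen with earlier results of these data known. The design text describes 6 separate rats. The number of arrays, 3 per group, limits the precision.

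Arrays with the same replicate number deviated from their group means together, at r = 0.60, 0.29 and 0.19 across circRNA probes, all above 0.1. The numbers were therefore treated as pairs in an alternative fit with the replicate number as a block. No r between arrays of different numbers is given here, so these values do not show that the arrays were paired.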

Additional observations from a re-analysis of the deposited data

How the results depend on the processing

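All 22 alternatives kept the negative direction of the 4 genes, which the filter changes, the joint fit with circRNA probes and the replicate block could not alter. When 1 array was left out, Rplp1 ranged from -0.85 to -0.34, Rpl13a from -0.35 to -0.15, Eif4b from -0.45 to -0.18 and Pop7 from -0.64 to -0.45. Pop7 passed at -0.60 with array weights. Normexp background correction, whose added 50 intensity units exceed most of these signals and shrink differences by construction, gave -0.20, -0.07, -0.12 and -0.26 in that order. The count of mRNA probes past the adjusted threshold, 1 in the reported setting, was 0 with no scaling, circRNA median, mRNA probe median, Hprt1 and B2m, quantile or cyclic loess scaling, relative to circRNAs of like brightness, with normexp, without the detection filter, with circRNA and mRNA probes in 1 fit, and with the slide row as a block. In the replicate block fit it was also 0, and the block changed no call among the 4 genes. It was 2 with outlier spots kept, 2 with probes detected on all 6 arrays, 4 with array weights, and 0 to 5 when 1 array was left out. In the limma fit of circRNA and mRNA probes together, where 0 of 13003 passed, the adjusted p of Pop7 was 0.427.

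Rplp1 and Rpl13a had r = 0.89, 0.86 and 0.90 after circRNA median scaling, cyclic loess and matching to circRNA brightness in turn. These passed the threshold adjusted over the 6 pairs alone. Pairs with Eif4b turned negative: with Rplp1 r was -0.58 with mRNA probe median scaling and -0.0941 with normexp, with Rpl13a -0.12 with mRNA probe median and -0.0256 with quantile scaling, and with Pop7 -0.15 with mRNA probe median scaling. The median correlation of the 6 pairs, 0.56, was 0.82 without scaling, 0.18 with mRNA probe median scaling, 0.0945 for deviations from the group means and 0.31 without the 2 farthest arrays. Among the ratios, Rplp1 over Pop7 was 0.0551 with normexp and -0.25 to 0.15 when 1 array was left out, Rplp1 over Eif4b -0.51 to 0.11 and Rpl13a over Eif4b -0.0163 to 0.30. The cause of these changes was not tested. With 3 arrays per group, small differences could not be resolved. The signals were within a few times the E1A level but far above the negative control medians of 1.02 to 1.14 intensity units.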
